A study of Mus musculus with 2 samples.

Results

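The matrix metalloproteinases (MMPs) are zinc-dependent enzymes that cut the proteins of the extracellular matrix, and the tissue inhibitors of metalloproteinases (TIMPs) bind and block them. Described here are 7 proteases (Mmp2, Mmp8, Mmp9, Mmp12, Mmp13, Mmp14 and Mmp19) and 3 inhibitors (Timp1, Timp2 and Timp3), taken by gene symbol, 10 of the 32285 genes in the matrices. All 10 were found. The cells sequenced, one by one in droplets, were hepatic non-parenchymal cells, a preparation meant to leave hepatocytes behind. There was 1 library from Mfap2+/+ mice (wild-type) and 1 from Mfap2-/- mice (knockout), and both groups received carbon tetrachloride (CCl4), a toxin that scars the liver, by intraperitoneal injection for 8 weeks. Mfap2 encodes a glycoprotein of elastic microfibrils. The labels give no strain, age, control without CCl4 or number of animals per library.

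In a scarred liver the balance between MMPs and TIMPs sets how fast collagen is removed. Most MMPs are secreted as inactive precursors, and each has preferred substrates: the collagenases open fibrillar collagen, the gelatinases cut denatured and basement membrane collagen, and metalloelastase cuts elastin. Hepatic stellate cells and fibroblasts are textbook sources of Mmp2 and Timp1, macrophages of Mmp12 and Mmp13, and neutrophils of Mmp8 and Mmp9.

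Cells were grouped by clustering without the 10 genes and named from marker genes. A name such as macrophage-like rests on those markers. The 15 classes with at least 50 cells in each library are compared. After filtering, 10336 wild-type and 11428 knockout cells remained, with median depths per barcode before filtering of 4685 and 6511 UMIs (unique molecular identifiers, each standing for 1 captured RNA molecule). The 2 libraries shared 40 cell barcodes. Mfap2 itself gave 170 UMIs in wild-type and 1 in knockout mesenchymal-like cells, 57.6 and 0.305 UMIs per 1000000. Against the label of non-parenchymal cells, 63 and 86 hepatocyte-like cells were present.

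Levels are in CPM, the UMIs of a gene per 1000000 UMIs of the class. With 1 library per genotype no test is possible, so intervals are exact 95% intervals for counting error only, and the spread between animals is unknown. Differences are log2 ratios of knockout over wild-type levels. Free RNA in droplets gives every class some UMIs of a gene it does not make. B-like cells serve as the measure of that background, with a median depth of 3376 UMIs in wild-type and 4764 in knockout.

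**Figure D1:**
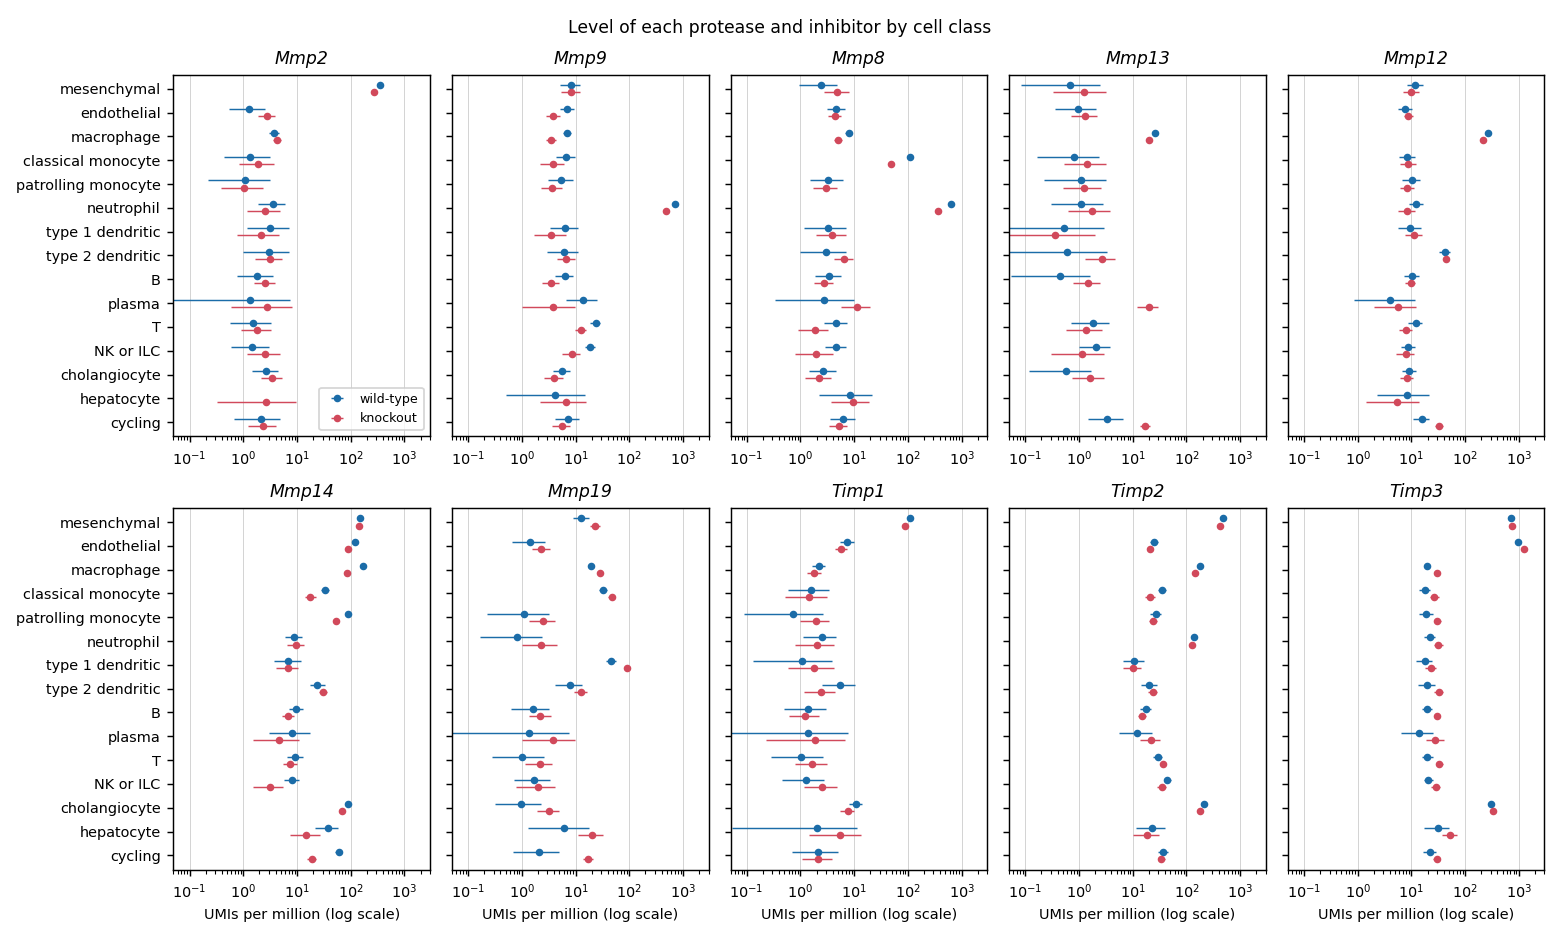
Level of each gene (CPM, log scale) in 15 cell classes of the wild-type (blue) and knockout (red) library, with exact 95% Poisson intervals; a class at 0 has no point. Mmp2 and Timp1 stand above the other classes in mesenchymal-like cells, Mmp8 and Mmp9 in neutrophil-like cells, and Mmp12 in macrophage-like cells, while Mmp14 and Timp2 are spread over several classes.

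Of the proteases, 3 lie in 1 run of MMP genes on chromosome 9 (GRCm38): Mmp13 at 7272514-7283331, Mmp12 at 7344381-7369499 and Mmp8 at 7558456-7568485, each on the plus strand. Their source cells differed, macrophage-like for Mmp12 and Mmp13 and neutrophil-like for Mmp8. The 250 bases before a start site of each are shown. They come from RefSeq (GRCm38.p6, plus strand) and lie at chr9:7347124-7347373 for the downstream of the 2 listed starts of Mmp12, chr9:7272264-7272513 for Mmp13 and chr9:7558179-7558428 for Mmp8. Capitals mark matches to TGACTCA or TGAGTCA, the AP-1 motif, which are reverse complements of each other, so that both strands are covered.
Mmp12: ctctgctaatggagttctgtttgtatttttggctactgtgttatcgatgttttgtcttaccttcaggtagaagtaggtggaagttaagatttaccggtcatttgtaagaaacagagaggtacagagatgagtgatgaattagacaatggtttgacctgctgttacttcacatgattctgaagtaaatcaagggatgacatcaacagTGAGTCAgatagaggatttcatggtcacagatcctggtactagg
Mmp13: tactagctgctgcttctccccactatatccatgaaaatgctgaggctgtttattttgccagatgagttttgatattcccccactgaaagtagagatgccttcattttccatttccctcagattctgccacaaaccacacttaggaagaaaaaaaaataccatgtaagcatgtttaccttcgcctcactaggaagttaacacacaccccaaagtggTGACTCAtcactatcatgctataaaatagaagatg
Mmp8: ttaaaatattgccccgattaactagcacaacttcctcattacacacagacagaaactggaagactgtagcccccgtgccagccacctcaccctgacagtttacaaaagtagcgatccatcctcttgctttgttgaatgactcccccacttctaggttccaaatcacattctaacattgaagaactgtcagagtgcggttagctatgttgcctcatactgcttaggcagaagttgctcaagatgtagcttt

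The motif began 44 bases before the start of Mmp12 and 35 bases before that of Mmp13. Those letters were in neither the window of Mmp8 nor that of the upstream Mmp12 start. Of 32851 promoter windows of the same length, 1466 (4.46%) held it. These 3 genes also had base compositions poor in G and C, 39.6% for this Mmp12 start, 40.4% for Mmp13 and 44.8% for Mmp8. The windows of Timp2 and Timp3 held 68.0% and 65.6% G and C, beside a median of 52.4% over all windows. Windows for Mmp14 (55.2%) and Timp1 (54.4%) lay between them, and none of these 4 genes held the motif. The table held windows for 7 of the 10 genes, not for Mmp2, Mmp9 and Mmp19. A match describes letters and does not show a bound site.

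Mmp2, gelatinase A, was a mesenchymal-like transcript (chromosome 8, 92827291-92853420). Most of these cells were in a cluster led by Dcn, Col3a1, Col1a1 and Lum, and the others in a shallow cluster led by Tagln and Mylk. Together they held 85.7% of all Mmp2 UMIs in wild-type and 75.7% in knockout. There were 242 such cells in wild-type and 268 in knockout. The level was 351 CPM (1035 UMIs, interval 330 to 373) in wild-type and 267 (875 UMIs, 249 to 285) in knockout. The 2 intervals do not overlap, and the log2 ratio was -0.39 (-0.53 to -0.26). The 5 richest cells held 21.2% of these UMIs in wild-type and 14.6% in knockout, and 1 wild-type cell held 103. Over the 14 alternatives of the closing section the ratio ran from -0.63 to -0.21. No other of the 15 classes came above 4.25 CPM in either library, and B-like cells stood at 1.81 and 2.55. At full depth an Mmp2 UMI was seen in 65.7% of the wild-type mesenchymal-like cells and in 57.5% of the knockout ones, against 0.649% and 1.22% of B-like cells. Mesenchymal-like cells were deeper, with medians of 11874.5 and 11619.5 UMIs. Sampling 1000 UMIs from every cell, with 22 shallower wild-type and 37 shallower knockout cells dropped, gave shares of 23.2% and 19.9%, against 0.250% and 0.227% of B-like cells.

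The make-up of the mesenchymal-like class also differed between the libraries. Summed over 7 stellate markers, none at 0, the level was 5480 CPM in wild-type and 3735 in knockout. Over 6 smooth muscle markers the values were 1308 and 835, and over 8 fibroblast markers 670 and 785. The part of this shift in the Mmp2 value was not tested. Of the 9 members with at least 20 UMIs in this class, 0 were 2-fold apart, where 5.68% of all 12354 genes so measured were at least 2-fold higher in knockout and 2.12% at least 2-fold lower.

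Mmp9, gelatinase B (chromosome 2, 164940780-164955850), is stored in neutrophil granules. Neutrophil-like cells, 1232 in wild-type and 983 in knockout, held 81.3% and 79.0% of its UMIs. They stood at 701 CPM (2553 UMIs) in wild-type and 491 (1715 UMIs) in knockout, a log2 ratio of -0.51 (-0.60 to -0.43). An Mmp9 UMI was found in 67.4% and 65.2% of these cells, at median depths of 2295.5 and 2784 UMIs, and in 2.19% and 1.66% of the deeper B-like cells. T-like cells came next, at 23.5 and 12.4 CPM, then NK or innate lymphoid-like cells at 18.7 and 8.44, against 6.32 and 3.44 in B-like cells. Within the T-like class the UMIs lay mainly in the cluster led by Themis, Cd40lg and Icos, at 38.1 and 21.8 CPM. A cluster led by Lef1 and Tcf7 stood at 2.64 and 5.87.

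Mmp8, the neutrophil collagenase, had the same main source, with 73.1% of its UMIs in wild-type and 65.9% in knockout neutrophil-like cells. The level there was 631 CPM (2296 UMIs) in wild-type and 364 (1271 UMIs) in knockout, a log2 ratio of -0.79 (-0.89 to -0.69). Mmp8 was detected in 35.1% of the wild-type neutrophil-like cells and 27.7% of the knockout ones, and with 1000 UMIs sampled per cell in 25.5% and 15.9%. B-like cells stood at 0.167% and 0.283% after thinning.

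The neutrophil-like class joined 2 clusters, a smaller one led by the secondary granule genes Ngp, Ltf and Camp, and a larger one led by Retnlg, G0s2 and Asprv1. Mmp8 was higher in the Ngp-led cluster, at 935 CPM in wild-type and 657 in knockout, than in the Retnlg-led cluster, at 421 and 214. Mmp9 was more even, at 654 and 451 in the Ngp-led cluster and 734 and 511 in the Retnlg-led cluster. Thus the CPM of both genes was lower in the knockout library within each cluster. The shares of Ngp-led cells with a UMI were not lower: 56.4% and 58.2% for Mmp8 and 64.5% and 74.7% for Mmp9. These cells were deeper in knockout, with medians of 4853 and 6716.5 UMIs. In the Retnlg-led cluster the shares were 29.5% and 22.3% for Mmp8 and 68.1% and 63.6% for Mmp9, at medians of 2123 and 2666. For Mmp8 the log2 ratios were -0.51 (-0.64 to -0.38) and -0.98 (-1.14 to -0.82), and for Mmp9 they were -0.53 (-0.69 to -0.38) and -0.52 (-0.63 to -0.41). Of the neutrophil-like cells, 21.02% lay in the Ngp-led cluster in wild-type and 14.9% in knockout.

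The 10 neutrophil markers, none at 0, summed to 178440 CPM in wild-type and 137892 in knockout neutrophil-like cells. Their part in the Mmp8 and Mmp9 values was not tested. Cells with Mmp9 UMIs more often had Mmp8 UMIs: 46.7% of 830 Mmp9-positive wild-type cells had one, against 11.2% of the 402 others. In knockout the shares were 35.9% of 641 and 12.3% of 342. The Mmp9-positive cells were deeper, with medians of 2500.5 and 2990 UMIs against 1898.5 and 2487.5. Of the 7 members measured in neutrophil-like cells, 0 were 2-fold apart, where 5.1% of genes were at least 2-fold higher in knockout and 1.48% lower.

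Mmp8 had a second source in classical monocyte-like cells, which are led by Vcan and F13a1. They stood at 112 CPM (423 UMIs in 475 cells) in wild-type and 48.2 (202 UMIs in 426 cells) in knockout, a log2 ratio of -1.21 (-1.46 to -0.97). It was the only one of 7 measured members past 2-fold in this class, where 1.31% of genes were at least 2-fold lower in knockout and 5.01% at least 2-fold higher. A UMI was found in 40.0% and 27.7% of the cells. Neutrophil markers, none of 10 at 0, summed to 1819 and 1344 CPM in these cells. In macrophage-like cells those markers summed to 1323 and 1119, and Mmp8 stood at 7.97 and 4.95. Mmp9, the other neutrophil protease, stood at 6.61 and 3.82 in classical monocyte-like cells, close to its B-like level. The 7 classical monocyte markers, none at 0, summed to 3592 CPM in wild-type and 2609 in knockout classical monocyte-like cells. Immature neutrophil markers, none of 7 at 0, summed to 491 and 303 there. The part of these and of the neutrophil markers in the Mmp8 level and ratio was not tested.

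**Figure D2:**
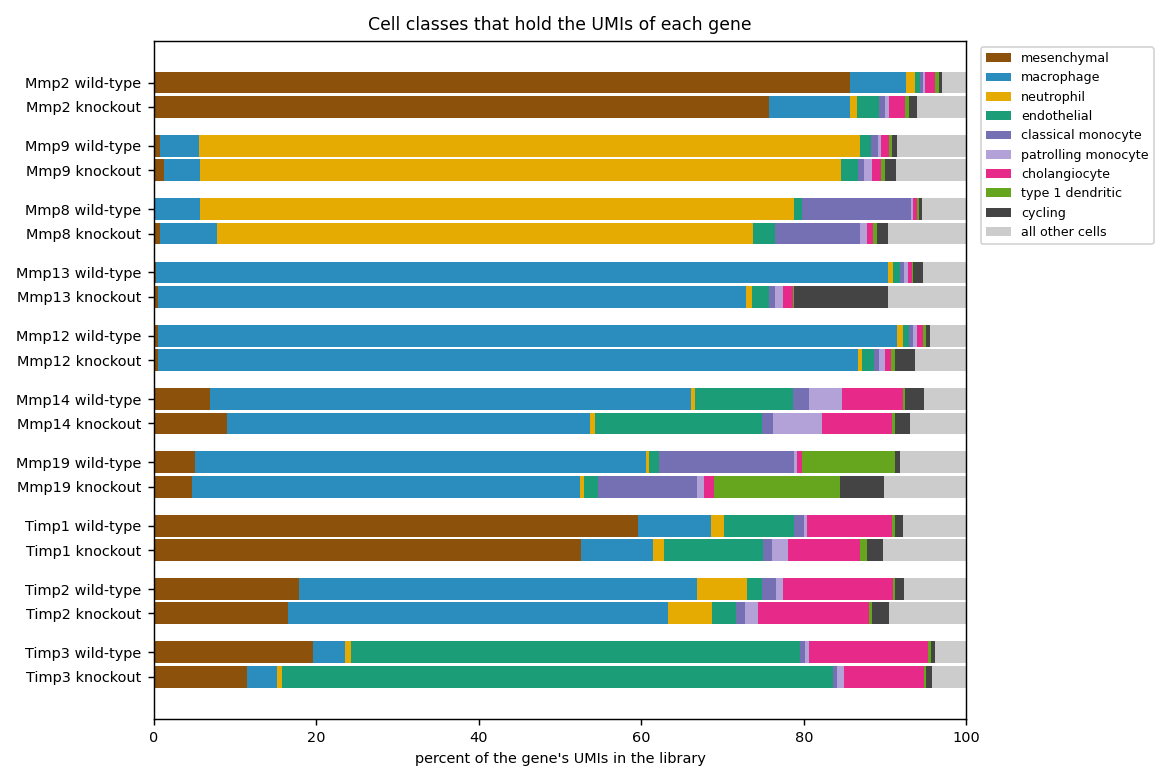
Share of each gene's UMIs (percent of all its UMIs in a library, over all cells kept) held by each cell class, for the wild-type and the knockout library. Neutrophil-like cells hold 81.3% and 79.0% of the Mmp9 UMIs and macrophage-like cells 90.9% and 86.2% of the Mmp12 UMIs, while no class holds more than 59.1% of the Mmp14 UMIs; the shares also depend on how many cells of a class were recovered.

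Mmp12, macrophage metalloelastase, was detected chiefly in macrophage-like cells, 2060 in wild-type and 2096 in knockout, which held 90.9% and 86.2% of its UMIs. The level was 262 CPM (5725 UMIs) in wild-type and 212 (5775 UMIs) in knockout, a log2 ratio of -0.31 (-0.36 to -0.26). Mmp12 was detected in 29.2% of the wild-type cells and 23.9% of the knockout ones, and after thinning in 11.7% and 6.79%, against 0.833% and 0.567% of B-like cells. Type 2 dendritic-like cells followed at 41.5 and 44.4 CPM, with 78.3% and 56.8% of those UMIs in the 5 richest cells. All others except the cycling-like cells described below stood at 12.4 or less, and B-like cells at 10.2 and 9.66. Its 3′ end overlaps Mmp1b on the other strand, and Mmp1b had 0 wild-type and 1 knockout UMI in all.

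Within macrophage-like cells Mmp12 was uneven, and although it was kept out of the clustering it was among the leading genes of 1 cluster, so the cluster values are a description. It was highest in the cluster led by Gpnmb, Atp6v0d2 and Fabp5, genes known from scar-associated macrophages, at 1281 CPM in wild-type and 683 in knockout. There 70.4% and 51.1% of cells had a UMI. It stood at 161 and 189 in the cluster led by the Kupffer cell genes Marco, Clec4f and Vsig4, and at 103 and 112 in the cluster led by C1qa, C1qb and Ms4a7. The log2 ratio was thus -0.91 (-0.98 to -0.84) in the Gpnmb-led cluster and 0.23 (0.08 to 0.38) and 0.12 (0.02 to 0.21) in the Clec4f-led and C1qa-led clusters. Without the 5 cells of the class richest in Mmp12 in each library, an alternative added after seeing the data, the Gpnmb-led value was -0.77 and the C1qa-led value -0.24 (-0.34 to -0.13), so no direction is read in the C1qa-led cluster. None of the cells left out lay in the Clec4f-led cluster, so this alternative could not change its value. In that cluster 31.5% of wild-type and 30.6% of knockout cells had a UMI. The Gpnmb-led cluster held 13.4% of the macrophage-like cells in wild-type and 12.9% in knockout, and the Clec4f-led cluster 19.3% and 11.5%.

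Mmp13, the main interstitial collagenase of rodents, was sparser. Macrophage-like cells held 90.0% of its UMIs in wild-type and 72.4% in knockout, at 26.4 (577 UMIs) and 20.05 (547 UMIs) CPM, a log2 ratio of -0.40 (-0.57 to -0.23). Only 9.56% and 6.63% of these cells had a UMI, against 0.162% and 0.721% of B-like cells. In the Gpnmb-led cluster Mmp13 stood at 83.6 CPM in wild-type and 16.0 in knockout, a log2 ratio of -2.37 (-2.80 to -1.99). The Clec4f-led cluster stood at 10.8 and 4.50, a log2 ratio of -1.21 (-2.14 to -0.45). In the C1qa-led cluster the log2 ratio was 0.19 (-0.02 to 0.41), at 20.98 and 24.0 CPM, while 8.15% and 6.19% of its cells had a UMI. The 5 richest knockout cells, with 166 of the 547 macrophage-like UMIs, all lay in that cluster, and the 5 richest wild-type cells held 86 of 577. Without these cells the C1qa-led value was -0.19 (-0.44 to 0.06), so no direction is read there, and the Gpnmb-led value was -2.13. Mmp13-positive cells more often had Mmp12 UMIs, 59.4% of 197 against 26.0% of the 1863 others in wild-type, and 43.9% of 139 against 22.5% of 1957 in knockout. They were also deeper, with medians of 11861 and 14714 UMIs against 10408 and 12568.

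Outside macrophage-like cells, Mmp13 in the knockout library lay in few cells. Cycling-like cells had 8 UMIs in wild-type and 87 in knockout, 76 of the 87 in 5 cells that also had between 31 and 1028 UMIs of macrophage markers. Plasma-like cells had 0 and 21 UMIs, 19 of them in 1 cell.

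Mmp14, the membrane-type protease that activates pro-Mmp2 at the cell surface, was above background in macrophage-like, mesenchymal-like, endothelial-like, cholangiocyte-like and monocyte-like cells (chromosome 14, 54431612-54445364). In wild-type it stood at 167 CPM in macrophage-like (interval 162 to 173), 146 in mesenchymal-like (133 to 161), 120 in endothelial-like (111 to 128), 90.1 in cholangiocyte-like and 89.8 in patrolling monocyte-like cells. The order differed in knockout: mesenchymal-like cells stood at 141 (129 to 155), endothelial-like at 90.5 (85.1 to 96.2), macrophage-like at 83.9 (80.5 to 87.4), cholangiocyte-like at 69.4 and patrolling monocyte-like at 53.6. The endothelial-like and macrophage-like intervals overlap in knockout, as do the cholangiocyte-like and patrolling monocyte-like intervals in wild-type. B-like cells stood at 9.71 and 6.89.

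The level of Mmp14 was lower in the knockout library in the macrophage-like class and close to equal in the mesenchymal-like class. The log2 ratio was -0.996 (-1.07 to -0.92) over 3654 and 2290 UMIs in macrophage-like cells, just short of 2-fold, and -0.05 (-0.24 to 0.14) in mesenchymal-like cells, where it reached 0.10 with a per-cell marker gate. Within macrophage-like cells it was -0.96 in the C1qa-led cluster (159 and 81.6 CPM), -0.94 in the Clec4f-led cluster (239 and 125) and -0.48 in the Gpnmb-led cluster (80.7 and 57.9). Unlike Mmp12, Mmp14 thus had its lowest CPM in the Gpnmb-led cluster. There 40.8% of wild-type and 50.7% of knockout cells had a UMI, at median depths of 9172 and 14415 UMIs. The shares were 64.4% and 50.4% in the C1qa-led cluster and 84.1% and 70.2% in the Clec4f-led cluster. Patrolling monocyte-like cells gave -0.74 (-0.99 to -0.50), classical monocyte-like cells -0.91 (-1.35 to -0.49), endothelial-like cells -0.40 (-0.54 to -0.26) and cholangiocyte-like cells -0.38 (-0.57 to -0.19). After thinning, the classical monocyte-like value was 0.16, and as a mean over cells the cholangiocyte-like value was 0.070, so no direction is read there. Mmp14 was detected in 65.0% of the macrophage-like cells in wild-type and 52.7% in knockout, and after thinning in 14.4% and 6.98%, against 0.749% and 0.283% of B-like cells.

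Of 10 members measured in macrophage-like cells, 0 reached 2-fold (Mmp14 did under 7 of the 14 alternatives), where 6.29% of 14950 genes were at least 2-fold higher in knockout and 1.04% lower. The median log2 ratio over the 10 was -0.32 beside 0.13 over all genes. Of the 10, Mmp9 (6.87 and 3.52 CPM) and Timp3 (19.5 and 29.8) stood at about their B-like levels in these cells. Mmp2, Mmp8 and Timp1 stood at 7.97 CPM or less in both libraries. The median thus includes values that are read as background. Dissociation stress genes, immediate early and heat-shock genes that rise while tissue is digested, summed to 26393 CPM in wild-type and 33749 in knockout macrophage-like cells, with none of 12 at 0. Kupffer cell markers, none of 8 at 0, summed to 5367 and 2423. Their part in these values was not tested.

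Mmp19, a secreted protease of basement membrane proteins (chromosome 10, 128790910-128800824), was the protease with higher knockout levels in its main classes. Type 1 dendritic-like cells, which carry Xcr1 and Clec9a, stood highest at 45.4 CPM (85 UMIs in 129 cells) in wild-type and 89.3 (252 UMIs in 140 cells) in knockout, a log2 ratio of 0.96 (0.62 to 1.35). Of those UMIs, 54.1% and 38.1% lay in the 5 richest cells. The ratio was 1.39 without them, and over all alternatives it ran from 0.53 with the automatic doublet threshold to 1.95 with the libraries clustered separately. Classical monocyte-like cells came next at 32.8 and 47.0 CPM, a log2 ratio of 0.52 (0.19 to 0.86). Macrophage-like cells stood at 19.0 and 28.4, a log2 ratio of 0.58 (0.41 to 0.75), and held 55.5% and 47.8% of all Mmp19 UMIs. B-like cells stood at 1.58 and 2.22. Within macrophage-like cells the C1qa-led and Clec4f-led clusters gave 0.89 (0.66 to 1.14) and 0.97 (0.47 to 1.51). The Gpnmb-led cluster stood at 56.6 and 39.6, a log2 ratio of -0.52 (-0.84 to -0.19) that was -0.06 (-0.44 to 0.34) without the 5 richest macrophage-like cells of each library. In mesenchymal-like cells the 38 wild-type and 76 knockout UMIs lay by 55.3% and 51.3% in 5 cells. Mmp19 overlaps Tmem198b and an antisense transcript, Gm47093, on the other strand, which had 243 and 71 UMIs in wild-type and 289 and 131 in knockout over all cells.

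**Figure D3:**
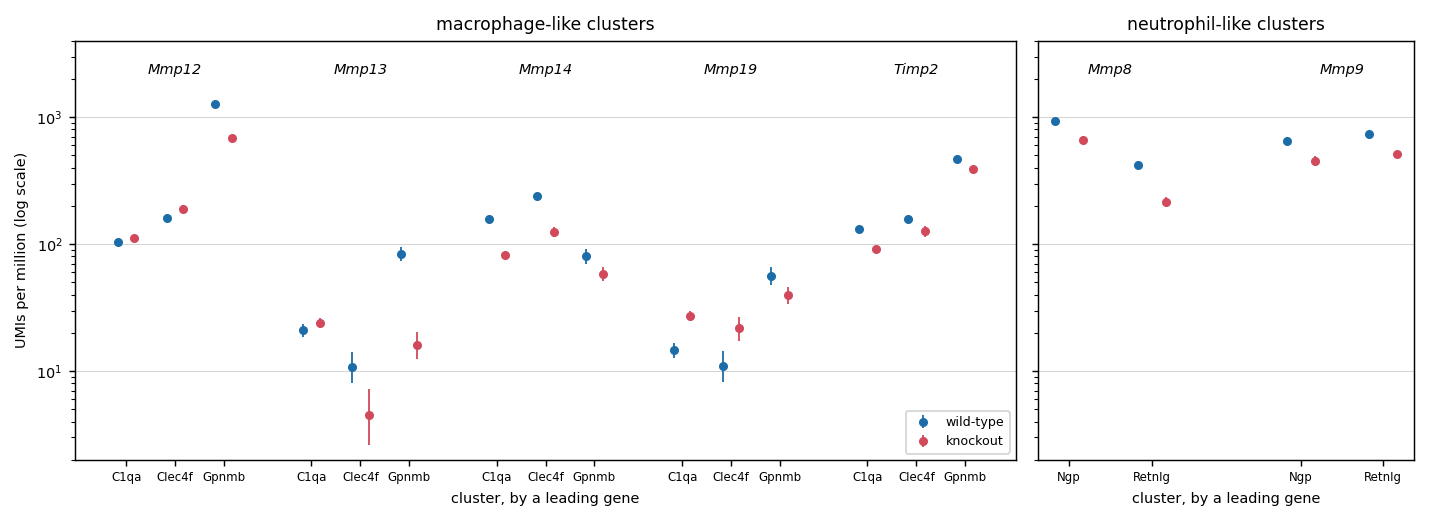
Level (CPM, log scale) in the macrophage-like clusters led by C1qa, Clec4f and Gpnmb, and in the neutrophil-like clusters led by Ngp and Retnlg, for the wild-type (blue) and knockout (red) library with exact 95% Poisson intervals. Mmp12 and Mmp13 are lower in the knockout library in the Gpnmb-led cluster (1281 against 683 and 83.6 against 16.0), while Mmp8 and Mmp9 are lower in knockout in both neutrophil-like clusters.

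Timp1, the secreted inhibitor that activated stellate cells are known for, followed Mmp2. Mesenchymal-like cells held 59.6% of its UMIs in wild-type and 52.6% in knockout, at 108 CPM (318 UMIs) and 87.8 (288 UMIs), a log2 ratio of -0.29 (-0.53 to -0.06). Few cells carried the signal: 5 cells held 48.1% of the wild-type and 38.5% of the knockout UMIs, and 37.6% and 35.1% of cells had any. After thinning, the shares had the other order, 4.09% and 6.49%, and the log2 ratio of the thinned sums was 0.62. So no direction is read from the Timp1 values. Cholangiocyte-like cells followed at 10.8 and 7.53 CPM and endothelial-like cells at 7.39 and 5.76, with B-like cells at 1.36 and 1.22. Timp1 lies inside Syn1, which is on the other strand and stood at 30.8 and 45.1 CPM in mesenchymal-like cells. The treatment of strand is not given in the sources used here, so it is not known whether reads of either gene were counted for the other.

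Timp2, which blocks MMPs and also takes part in the activation of pro-Mmp2 by Mmp14, was highest in mesenchymal-like cells, at 489 CPM (1444 UMIs) in wild-type and 421 (1381 UMIs) in knockout, a log2 ratio of -0.22 (-0.32 to -0.11). Cholangiocyte-like cells stood at 209 and 179, macrophage-like cells at 180 and 143, and neutrophil-like cells at 137 and 129, in the same order in both libraries. In knockout the intervals of the macrophage-like class (139 to 148) and the neutrophil-like class (118 to 142) overlap. By number, macrophage-like cells were the main source, with 48.9% and 46.8% of the UMIs. Their log2 ratio was -0.33 (-0.40 to -0.27), and all 3 of their clusters had a lower CPM in knockout, the Gpnmb-led cluster at 471 and 388. A Timp2 UMI was found in 83.0% and 90.0% of the Gpnmb-led cells and 68.3% and 72.7% of the Clec4f-led cells. In the C1qa-led cluster the shares were 57.1% and 52.6%. Median depths of the Gpnmb-led cells were 9172 and 14415 UMIs. Neutrophil-like cells gave -0.08 (-0.26 to 0.11). B-like cells stood at 17.4 and 14.8. Cep295nl, which lies within Timp2 on the same strand, had 19 and 44 UMIs in all.

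Timp3, the inhibitor that stays bound to the matrix and also blocks several ADAM and ADAMTS proteases, was the one inhibitor with a higher level in knockout. Endothelial-like cells, 1219 in wild-type and 1626 in knockout, held 55.3% and 67.8% of its UMIs. They stood at 959 CPM (5968 UMIs, interval 935 to 983) and 1257 (14617 UMIs, 1236 to 1277), a log2 ratio of 0.39 (0.35 to 0.43). The cluster led by the sinusoidal genes Stab2, Clec4g and Lyve1 gave 0.37 (991 and 1281 CPM) and the cluster led by Selp, Rspo3 and Vwf gave 0.40 (910 and 1201). In endothelial-like cells sinusoidal markers summed to 5220 CPM in wild-type and 6170 in knockout, vascular markers to 2037 and 1322, macrophage scar-associated markers to 1971 and 893 (7 markers in each list) and the 12 dissociation stress genes to 15325 and 20865, with no marker of these lists at 0. The Stab2-led cluster held 47.3% of the class in wild-type and 60.4% in knockout. The part of these markers was not tested. Mesenchymal-like cells stood at 716 and 753, a log2 ratio of 0.07 (-0.01 to 0.16) that was -0.08 with median-of-ratios scaling, and cholangiocyte-like cells at 305 and 331, a ratio of 0.12 that was -0.019 with median-of-ratios scaling.

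Hepatocyte-like cells stood at 30.9 CPM (15 UMIs) in wild-type and 52.1 (39 UMIs) in knockout. All remaining classes of the 15 held Timp3 near its background, between 13.6 and 22.0 CPM in wild-type and 23.0 and 33.1 in knockout. B-like cells stood at 19.9 and 29.99, a log2 ratio of 0.58 (0.24 to 0.96), and macrophage-like cells at 19.5 and 29.8, a log2 ratio of 0.61. Levels at or near the B-like level are read as background and not as expression. Syn3, which encloses Timp3 on the other strand, stood at 29.2 and 49.9 CPM in endothelial-like, 43.4 and 81.9 in cholangiocyte-like and 23.4 and 42.4 in mesenchymal-like cells. As for Timp1 and Syn1, it is not known whether reads of either gene were counted for the other. Of 10 members measured in endothelial-like cells 0 were 2-fold apart, where 3.78% of genes were at least 2-fold higher in knockout and 2.35% lower.

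**Figure D4:**
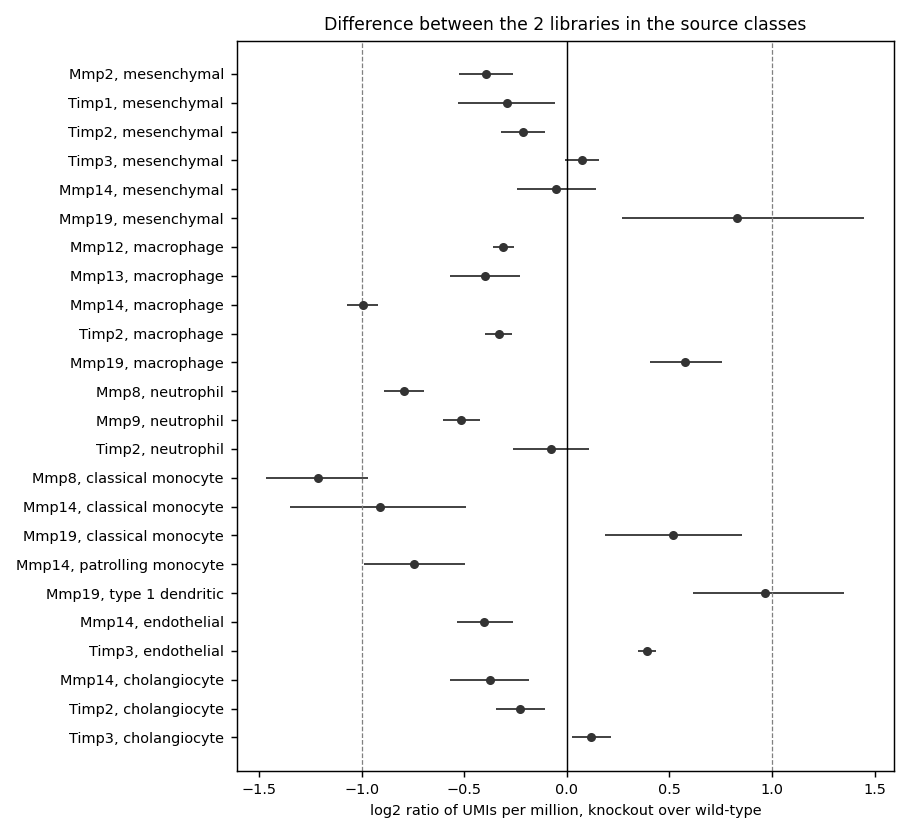
Log2 ratio of CPM, knockout over wild-type, for 24 pairs of a gene and a class in which it stands above background, with exact 95% intervals for counting error; dashed lines mark 2-fold. Mmp14 lies at -0.996 in macrophage-like and -0.05 in mesenchymal-like cells, Mmp8 at -1.21 in classical monocyte-like cells, and the Mmp19 values lie above 0.

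In the other classes members past 2-fold mostly rested on few UMIs. In NK or innate lymphoid-like cells 3 of 6 measured members were at least 2-fold lower in knockout, where 1.42% of genes were and 3.83% were higher: Mmp9 with 90 and 30 UMIs, Mmp14 with 39 and 11 and Mmp8 with 22 and 7. Mmp14 stood at 8.11 and 3.09 CPM in these cells, against 9.71 and 6.89 in B-like cells. Mmp8 stood at 4.58 and 1.97, against 3.39 and 2.78. Both are thus read as background, while Mmp9 stood above its B-like level. Cycling-like cells had 3 of 8 members at least 2-fold higher, Mmp12, Mmp13 and Mmp19, and Mmp14 at least 2-fold lower, where 5.88% and 2.51% of genes were. Mmp14 there stood at 59.7 and 18.9 CPM and Mmp19 at 2.10 and 17.1. In knockout 51 of the 87 Mmp19 UMIs lay in 5 cells, 34 of them in 1 cell. Of the 2 clusters of this class, 1 held 31.5% of the cells in wild-type and 56.1% in knockout. In the other, Mmp19 stood at 0.713 and 0.549 CPM and Mmp14 at 7.13 and 4.39. The cycling-like cells differed in make-up too, with Kupffer cell markers at 1480 and 476 CPM and type 1 dendritic markers at 774 and 1370, whose part was not tested. T-like cells had 1 of 6 members at least 2-fold lower (Mmp8, 18 and 11 UMIs, where 1.37% of genes were and 4.29% were higher), hepatocyte-like cells 1 of 3 lower (Mmp14, 18 and 11 UMIs, where 8.16% of genes were and 7.7% were higher), cholangiocyte-like cells 1 of 9 higher (Mmp19, 5 and 20 UMIs, where 6.78% of genes were and 1.4% were lower) and plasma-like cells 1 of 3 higher (Mmp13, where 7.13% of genes were and 2.1% were lower). Mmp8 in T-like cells, at 4.60 and 1.84 CPM, also lay near its B-like level. So did Mmp19 in cholangiocyte-like cells, at 0.960 and 3.14 against 1.58 and 2.22 in B-like cells. None of the members was 2-fold apart in 4 classes: 0 of 8 in B-like cells, where 3.72% of genes were higher and 1.32% lower, 0 of 6 in patrolling monocyte-like cells (4.21% and 1.23%), 0 of 6 in type 1 dendritic-like cells (4.51% and 1.29%) and 0 of 7 in type 2 dendritic-like cells (4.68% and 3.02%).

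Genes were ranked by how closely their log2 levels over the 15 classes of both libraries, 30 points, followed each member. The points share libraries and the class markers are among the genes. Timp3 was followed most closely by Rhoj (Pearson r 0.99), Adamts1 (0.98) and Dlc1 (0.98). Mmp2 was closest to Col14a1 (0.98), Eya4 (0.97) and Hand2os1 (0.97), and Timp1 to Adamts5 (0.96), Sgcd (0.94) and Fxyd6 (0.93). The neutrophil pair was closest to granulocyte genes, Mmp8 to Cd177 (0.93), Fcnb (0.92) and Tarm1 (0.91), and Mmp9 to Ngp (0.95), Retnlg (0.94) and Asprv1 (0.94). Mmp12 was closest to C1qa (0.90), C3ar1 (0.90) and C1qc (0.90). Mmp13 was closest to Htr2b (0.85), B3galnt1 (0.80) and Cd207 (0.79). For Mmp14 they were Rassf8 (0.90), Hes1 (0.89) and Vat1 (0.89), for Mmp19 Ifi205 (0.81), Cysltr1 (0.79) and Cyp27a1 (0.78), and for Timp2 Necab2 (0.85), Matn4 (0.82) and Zfp651 (0.81). Among the members themselves Mmp2 with Timp1 (0.88), Timp1 with Timp3 (0.80) and Mmp8 with Mmp9 (0.73) were the closest pairs.

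Other genes of the pathway were read from lists in the mesenchymal-like and macrophage-like classes. Over all genes measured, 5.68% were at least 2-fold higher in knockout and 2.12% lower in mesenchymal-like cells. In macrophage-like cells the shares were 6.29% and 1.04%. Of 17 genes, other MMPs and Timp4, 6 were measured in mesenchymal-like and 5 in macrophage-like cells, and 0 were 2-fold apart. Mmp23, the one gene of this list that met the naming rule, stood at 87.7 and 75.6 CPM in mesenchymal-like cells. The plasminogen system activates MMPs. In macrophage-like cells Plaur, the receptor of the activator Plau, gave 0.42, while Anxa2 and S100a10, whose complex binds plasminogen at the cell surface, gave -0.48 (137 and 97.9 CPM) and -0.24. In mesenchymal-like cells Plau alone, of 7 measured, was at least 2-fold lower in knockout, beside 2.12% of all genes. Serpine2 gave 0.48 and the activator Plat 0.31 there, S100a10 -0.48 (189.0 and 135 CPM) and Anxa2 -0.45 (238 and 174 CPM).

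Of 12 genes for MMP activators, surface partners and clearance, 9 were measured in mesenchymal-like and 10 in macrophage-like cells. Of these, 0 were 2-fold apart, beside the shares over all genes given above. Bsg, the surface protein that induces MMPs, gave -0.63 (-0.76 to -0.50) in mesenchymal-like and -0.48 in macrophage-like cells. Furin, the convertase that activates Mmp14, gave -0.38 and Lrp1, which takes up MMPs, -0.33 in macrophage-like cells. Cd44 gave 0.42 in both. Among 17 measured ADAM and ADAMTS genes, 1 was at least 2-fold higher in each class: Adamts10, at 43.4 and 93.9 CPM, in mesenchymal-like cells and Adam12 in macrophage-like cells, where 5.68% and 6.29% of all genes were. In mesenchymal-like cells Adam12 gave 0.86 (0.67 to 1.06). The 10 scar substrates were all measured in mesenchymal-like cells with 0 past 2-fold, beside 5.68% of all genes higher and 2.12% lower. Their median log2 ratio was 0.21 beside 0.14 over all genes. Among them Col4a2 gave 0.49 and Col5a1 0.47, and Fn1 gave -0.37. In macrophage-like cells, 1 of 10, Col5a1, was at least 2-fold higher, beside 6.29% of all genes.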

How the data were processed

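The deposited matrices list raw UMI counts for every gene in every barcode; the file headers name Cell Ranger 7.0.1. The submitters' processing notes name Cell Ranger 3.1.0, Seurat and build mm10. Per the labels' protocols, libraries were Chromium 3′ v3. The treatment of intronic reads and of strand is not given in the sources used here. Totals were 82499307 UMIs over 11783 wild-type and 118226367 over 12872 knockout barcodes, none under 500 UMIs. Of 32285 gene identifiers, 32235 (99.8%) occur in GENCODE M21 on GRCm38, used for positions and overlaps only.

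A barcode needed 200 detected genes or more and a mitochondrial share of 20% or less, which took out 413 wild-type and 149 knockout barcodes. The highest Scrublet doublet scores (scanpy 1.11.5) were removed at 0.8% per 1000 cells, 1034 and 1295 cells, since the automatic threshold marked 7 wild-type cells (0.0616%) and 782 knockout cells (6.15%). Counts were scaled to 10000 per cell, log transformed and reduced from 2000 variable genes to 30 principal components, leaving out members and list genes. Leiden clusters (resolution 1, 15 neighbours) were named from marker lists. After the clusters were seen, haemoglobin genes were not taken as leading markers of shallow clusters, cycling was treated as a state that gives way to a lineage with more leading markers, and a cluster led by Elane, Prtn3 and Mpo was left unnamed with 2 others of low depth (858 wild-type and 593 knockout cells).

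UMIs were summed per class and library. Log2 ratios had 1 count added to each sum, with exact conditional intervals; levels had exact Poisson and shares exact binomial (Clopper-Pearson) 95% intervals. All cover counting error only, and the cells of a library are not replicates. A gene was counted as 2-fold apart with at least 20 UMIs over both libraries. The code was checked first on simulated data.

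The text names all 10 members and the 3 genes closest to each by Pearson r among genes with at least 200 UMIs. From each list, the rule gave up to 4 genes with the largest ratio among those with a mean of at least 50 CPM. Not all of these list genes are named. Plau, and Adam12 and Col5a1 in macrophage-like cells, were named after their values were seen, to complete small counts, as were the overlapping genes. Members and lists were chosen with earlier results of these data known. Each value was recomputed under the alternatives given in the closing section. One result is not reported here.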

Additional observations from a re-analysis of the deposited data

Results flagged for a closer look

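Mmp12 and Mmp13 had opposite directions in different cell classes of the same 2 libraries. The log2 ratio of Mmp12, knockout over wild-type, was -0.31 in macrophage-like cells and 1.05 in cycling-like cells. For Mmp13 it was -0.40 in macrophage-like cells, 2.19 in cycling-like cells and 3.92 in plasma-like cells, the last with 0 wild-type UMIs, so that its size depends on the count added and is no bound. With 1 library per genotype the differences between classes were not tested. In knockout cycling-like cells 5 cells held 115 of 167 Mmp12 UMIs and 76 of 87 Mmp13 UMIs, and 1 plasma-like cell held 19 of 21 Mmp13 UMIs.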

How the results depend on the processing

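For 24 log2 ratios and 14 alternatives each, 284 of 336 values stayed within the counting interval (4 of them with the other sign), 43 lay outside it with the same sign and 9 outside it with the other sign; 18 ratios had 1 sign throughout and 6 did not. Timp1 in mesenchymal-like cells (-0.29) was 0.40 with no doublets removed, 0.58 with the automatic doublet threshold, 0.62 as a mean of per-cell values and 0.62 after thinning. Mmp14 was 0.16 in classical monocyte-like cells after thinning and 0.070 in cholangiocyte-like cells as a mean of per-cell values, and Timp3 in cholangiocyte-like cells was -0.019 with median-of-ratios scaling. In mesenchymal-like cells, where both counting intervals include 0, Mmp14 (-0.05) reached 0.10 and Timp3 (0.07) -0.08. That scaling moved all genes by -0.15 in mesenchymal-like, -0.14 in macrophage-like and 0.02 in endothelial-like cells. Members past 2-fold in mesenchymal-like cells (0) numbered 1 with a per-cell marker gate and 1 with 0.1 count added. In macrophage-like cells (0) they numbered 1 with the stricter cell filter, 1 with libraries clustered separately, 1 with member and list genes kept in clustering, 1 with the gate and 1 without the 5 richest cells, and 2 as a mean of per-cell values, 2 after thinning and 2 with median-of-ratios scaling. In endothelial-like cells (0) they numbered 3 with the automatic threshold, 1 with the gate, 2 as a mean of per-cell values, 2 without the richest cells and 1 with 0.1 count added. In neutrophil-like cells (0) they numbered 2 with no doublets removed, 3 with the gate and 1 with a minimum of 1 UMI. In classical monocyte-like cells (1) they numbered 4 with no doublets removed, 3 with the automatic threshold, 2 with the stricter filter and 2 without the richest cells. The cause was not tested. Weighting knockout clusters to the wild-type mix, leaving out shallow clusters and cluster values without the 5 richest cells were chosen after seeing the data; the first gave -0.92 for Mmp14 in macrophage-like cells. With T-like cells as the background class, Mmp9 stood at 23.5 and 12.4 CPM in place of 6.32 and 3.44. No paired analysis was possible because each genotype has 1 library, and none could be left out.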

Other observations

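An unnamed cluster led by the primary granule genes Elane, Prtn3 and Mpo, with 89 wild-type and 74 knockout cells, held 90 and 86 Mmp8 UMIs, or 48.4 and 39.2 CPM.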
